A study of Homo sapiens and Mus musculus with 18 samples.

Results

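Primed ESCs of the H9 and RUES2-GLR lines were compared by their polyadenylated RNA. The comparison took 4 of the 18 samples of the series, with 2 replicates of each line. Of the 44910 genes of the human count table, 15663 had enough counts in these 4 libraries to be tested, and they are the genes described here. H9 and RUES2 are established human embryonic stem cell lines. Primed H9 ESCs came from the same laboratory as the chemically reset naïve H9 cells, and no reporter or treatment is described for them. RUES2-GLR ESCs carry fluorescent reporters at SOX2 (mCitrine), TBXT (mCerulean) and SOX17 (tdTomato), and were also untreated. Per the methods, both were grown in StemFlex on Geltrex, passaged with Accutase and given the ROCK inhibitor Y-27632 during the day after passaging. RUES2-GLR ESCs are the cells from which the early and late RA-gastruloids of the series were made, whereas the human naïve cells of the series are H9. Each line is 1 genetic background, so a difference between them may belong to the line, its reporters, its passage history or its handling, and these cannot be told apart.

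Primed ESCs resemble the epiblast after implantation. They hold POU5F1, SOX2 and NANOG on, depend on FGF and NODAL signals, and lie close to anterior neural ectoderm, the fate that epiblast takes when BMP, NODAL and WNT signals are kept low. Primed cells also lean on glycolysis, while the mitochondrial genome encodes only some subunits of the respiratory complexes and the nucleus encodes the rest. Human pluripotent lines are known to differ in their readiness to form each germ layer, in imprinting and in the silencing of individual loci.

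Total counts were 12926595 and 38771193 in primed H9 ESCs (replicates 1 and 2) and 14196716 and 3681739 in primed RUES2-GLR ESCs. Levels are given in CPM, the counts scaled to each library's total after TMM normalisation over these 4 libraries. Single-gene levels in naïve H9 ESCs and RA-gastruloids were scaled by TMM over all 10 human libraries, so they are set beside the primed levels on a different scale. The limit set by a count of 0, taken as 3 counts, corresponded to 0.192 and 0.0641 CPM in the H9 libraries and 0.250 and 1.01 CPM in the RUES2-GLR libraries, so replicate 2 of RUES2-GLR ESCs limited what could be seen of weakly expressed genes. These limits cover counting error only. On log2 CPM, H9 replicates lay 32.5 apart and RUES2-GLR replicates 65.7 apart, against 150.1 to 163.6 between libraries of different lines. Replicates of a line were not copies of 1 library, as their counts departed from Poisson sampling, with a chi-square per degree of freedom of 2.34 in H9 and 2.94 in RUES2-GLR ESCs. The methods call the replicates biological, cultured in duplicate and collected within 1 batch. The p-values below therefore measure the spread between 2 such cultures of 1 batch. Whether the lines were collected and sequenced together is not given in the sources used here.

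A pattern of the counting has to be set beside every result. Some genes with many close copies elsewhere in the genome differed widely between the lines. The ribosomal protein gene RPS3A had 9.81 and 8.19 CPM in H9 and 565 CPM in each RUES2-GLR library. RPL7 had 14.7 and 13.7 CPM in H9 and 793 and 782 CPM in RUES2-GLR ESCs. For RPS3A, naïve H9 ESCs had 12.5 and 16.5 CPM and early RA-gastruloids 520.0 and 608 CPM. Processed pseudogenes, intron-less copies of other genes, were called higher in RUES2-GLR ESCs in 183 of 310 cases and lower in 36, with a median log2 fold change of 1.55. Default counting drops reads that align to several places, and the libraries of the study were sequenced in either of 2 paired-end configurations and trimmed in paired-end or single-end mode, but which applied to each library is not given in the sources used here. Line and these settings therefore cannot be told apart for genes with close copies. By number of annotated pseudogenes, protein-coding genes with 5 or more had 44 of 203 called higher and 6 lower (median 0.28), those with 1 to 4 had 181 of 1445 higher and 73 lower (median −0.05), and those with none had 2391 of 12006 higher and 1169 lower (median −0.06).

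Between the lines, 4769 transcripts were differentially expressed (DETs, Benjamini-Hochberg adjusted p under 0.05 by edgeR's quasi-likelihood test and an absolute log2 fold change above 1), which is 30.4% of the genes tested. Below, a signed or bare number in parentheses after a gene is its log2 fold change, RUES2-GLR over H9, and genes are called higher or lower by this rule. Of these, 3288 were higher in RUES2-GLR ESCs (21.0% of genes tested) and 1481 were lower (9.46%). Thus 68.9% of DETs were higher in RUES2-GLR ESCs, although the median log2 fold change of all tested genes was −0.01. The split depended on the fit and the threshold. With all 10 human libraries in 1 fit, the median moved to −0.12 and 58.4% of 5357 DETs were higher. By adjusted p alone, without the fold threshold, 5392 genes were higher and 5278 lower. The common biological coefficient of variation was 5.24%, and the libraries of the lines did not overlap in 81.9% of tested genes, so a lack of overlap marks no gene as particular here. Filtering carried 843 genes into the test through RUES2-GLR ESCs only, of which 759 were called higher, and 1017 through H9 ESCs only, of which 410 were called lower. The filter itself favours these directions. Counts of called members in each list below are to be read against the 21.0% and 9.46% of all genes. Among the 13627 genes that passed in both lines, 2501 were higher and 1071 lower.

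**Figure D1:**
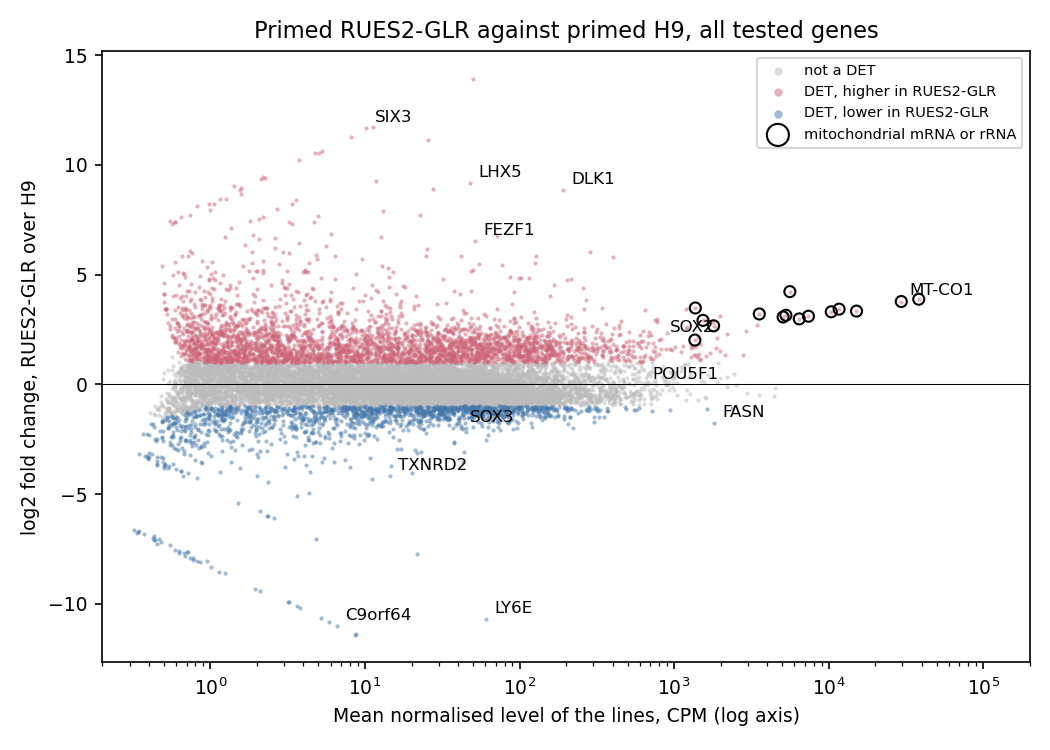
Log2 fold change (RUES2-GLR over H9) against the mean level of each tested gene in CPM on a log axis, with 1 point per gene, DETs coloured by direction and mitochondrial mRNAs and rRNAs circled. Most DETs lie above 0 (3288 against 1481), the circled genes form a group between 2.02 and 4.23 at high levels, and POU5F1 lies at −0.03.

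Core pluripotency genes were held by both lines. POU5F1, the central pluripotency factor, had 658 and 639 CPM in H9 and 614 and 659 CPM in RUES2-GLR ESCs. These values overlapped, and the log2 fold change was −0.03 ± 0.08 (SE). NANOG, which sustains self-renewal, had 16.4 and 16.8 CPM in H9 and 29.7 and 31.3 CPM in RUES2-GLR ESCs, a difference of 0.86 on the log2 scale that stayed under the fold threshold. DNMT3B, a de novo DNA methyltransferase typical of primed cells, had 1229 and 1219 CPM in H9 and 862 and 867 CPM in RUES2-GLR ESCs (−0.50). Of the 16 general pluripotency genes, all tested, 2 were higher in RUES2-GLR ESCs and none lower, with a median of 0.05. The exceptions were SOX2 and the NODAL-related ligand GDF3.

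SOX2 acts in both pluripotency and neural fate. It had 301 and 327 CPM in H9 and 1317 and 1349 CPM in RUES2-GLR ESCs. The lines were well separated, at a log2 fold change of 2.08 ± 0.08 (SE; edgeR adjusted p = 5.9e-15). The gene lies on chromosome 3 (181711925 to 181714436, GRCh38) and carries the mCitrine reporter in RUES2-GLR ESCs. What the tag contributes to the counts was not tested. GDF3 rose from 7.38 and 6.60 CPM to 40.1 and 44.8 CPM (2.60). OTX2, an epiblast factor that also specifies the anterior brain, had 40.2 and 36.2 CPM in H9 and 165 and 155 CPM in RUES2-GLR ESCs (2.09).

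Primed markers went both ways. Of 15 tested, 4 were higher and 4 lower in RUES2-GLR ESCs, against the 21.0% and 9.46% of all genes, with a median of 0.42. The WNT inhibitor SFRP2 (1.83), the surface protein CD24 (1.30) and OTX2 were among those higher. The ERK phosphatase DUSP6 (−1.04), the WNT effector TCF7L1 (−1.03), SALL2 (−1.22) and VRTN (−1.06) were lower. With counts thinned to the shallowest library, the calls of DUSP6, TCF7L1 and VRTN ended. The neural and epiblast factor ZIC2 had 250.3 and 277 CPM in H9 and 311 and 315 CPM in RUES2-GLR ESCs. Naïve markers were low in both lines. KLF17 had no count in any of the 4 libraries. Of 18 listed, 10 passed the filter, and they divided into 3 higher (KLF4, TFAP2C and ALPG) and 3 lower (TFCP2L1, DPPA5 and DPPA2), against 21.0% and 9.46% of all genes. ALPG passed the filter through RUES2-GLR ESCs only and DPPA5 through H9 ESCs only. The calls of KLF4 and DPPA5 ended without replicate 1 of RUES2-GLR ESCs, and that of DPPA5 also with DESeq2. TFCP2L1 had 7.95 and 8.44 CPM in H9 and 1.42 and 2.70 CPM in RUES2-GLR ESCs. Summed over the list, naïve markers made up 41.3 and 42.7 CPM of nuclear counts in primed H9 and 43.1 and 38.2 CPM in RUES2-GLR ESCs, against 15726 and 16071 CPM in naïve H9 ESCs. Both lines were thus far from the naïve level.

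Anterior neural transcription factors, which pattern the forebrain, eye field and pituitary, were detected at much higher levels in RUES2-GLR ESCs. LHX5, a LIM homeobox factor of the early forebrain on chromosome 12 (113462033 to 113472280), had 4 and 6 counts in the H9 libraries and 1191 and 269 counts in the RUES2-GLR libraries, or 0.257 and 0.128 CPM against 99.2 and 90.6 CPM. Its fitted log2 fold change was 9.17, given as a description because the gene passed the filter through RUES2-GLR ESCs only. Its antisense transcript LHX5-AS1, which overlaps it and was higher by at least 442-fold, was counted without strand, so reads from the shared stretch cannot be told apart. FEZF1, a zinc finger repressor of the forebrain on chromosome 7 (122301303 to 122310691), had 0.898 and 1.18 CPM in H9 and 103 and 100.1 CPM in RUES2-GLR ESCs (6.52 ± 0.13). The H9 libraries held so little of both transcripts that the groups were far apart. SIX3, which specifies the anterior-most forebrain and the eye, had no count in either H9 library and 272 and 54 counts in RUES2-GLR ESCs, at least 453-fold higher against a floor of 3 counts over the H9 libraries. HESX1, a homeobox repressor of the anterior neural plate and pituitary, had 3.01 and 2.86 CPM in H9 and 29.7 and 19.5 CPM in RUES2-GLR ESCs (3.20). RAX, an eye field factor, had 0.321 and 0.150 CPM against 6.75 and 9.099 CPM (5.20). In each of these genes both RUES2-GLR libraries exceeded both H9 libraries. This marks none of them as particular, since the lines did not overlap in 81.9% of all tested genes. For LHX5, SIX3 and RAX the filter itself favours this direction, as they passed it through RUES2-GLR ESCs only.

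Of the 19 anterior neural genes listed, 11 were tested and all 11 were higher in RUES2-GLR ESCs, with a median log2 fold change of 4.85, the value of DMBX1. SIX3 and EMX2 lie above it on fitted and count-based values alike. However, 6 of them (LHX5, SIX3, SIX6, RAX, EMX2 and DMBX1) passed the filter through RUES2-GLR ESCs only. The remaining 5 (FEZF1, HESX1, OTX1, SP8 and LHX2) passed in both lines and lay between 1.23 and 6.52, with a median of 1.66. SP8 had 4.43 and 5.34 CPM in H9 and 15.7 and 16.5 CPM in RUES2-GLR ESCs. LHX2 and SIX6 were weak, under 2 CPM in all 4 libraries, and neither was called by DESeq2 or without replicate 1 of RUES2-GLR ESCs. The call of OTX1 also ended without that replicate. EMX2 had 1 and 1 counts in H9 against 25 and 4, a ratio of 60.4 with a 95% counting interval of 15.3 to 522. The other 8 listed genes did not reach the filter and had at most 12 counts in any library. They included the midbrain genes EN1 and EN2, which had no count. Summed over the list, anterior neural genes amounted to 16.9 and 17.5 CPM of nuclear counts in primed H9 and 315 and 278 CPM in RUES2-GLR ESCs. The same sum was 165 and 187 CPM in naïve H9 ESCs, 191 and 192 CPM in early and 151 and 156 CPM in late RA-gastruloids, so primed H9 ESCs were the lowest of the human groups. SP8 had 127 and 148 CPM in naïve H9 ESCs and 152 and 168 CPM in early RA-gastruloids. FEZF1 was the most abundant of them in RUES2-GLR ESCs and SP8 in H9 ESCs. In a bulk sample, a few cells with much of these transcripts and many cells with a little cannot be told apart. Neither LHX5 nor FEZF1 exceeded 1 CPM in any library of the RUES2-GLR-derived RA-gastruloids.

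Promoters of the anterior neural genes were set side by side because these genes moved together. RefSeq windows (GRCh38.p14, 250 bases before to 50 after a start) were found for 9 of the 11 tested genes, in 11 windows. They held a median of 23 CpG dinucleotides, ranging from 3 to 43, against 14 over all 35116 windows of 300 bases. The 100 bases before a start are shown for 3 of them, read 5′ to 3′ on the strand of the gene, with every CpG in capitals, because these 3 genes passed the filter in both lines and their stretches differ in CpG content. FEZF1 and HESX1 each had 2 windows, with 14 and 13 CpGs in those of FEZF1 and 43 and 3 in those of HESX1, and the stretches shown come from the first of each.
FEZF1 (chr7:122304751-122304850, minus strand): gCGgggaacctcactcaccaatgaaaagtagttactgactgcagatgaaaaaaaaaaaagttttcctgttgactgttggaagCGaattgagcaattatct
HESX1 (chr3:57227616-57227715, minus strand): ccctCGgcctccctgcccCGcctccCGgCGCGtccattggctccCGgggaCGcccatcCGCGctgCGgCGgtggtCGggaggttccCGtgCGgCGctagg
OTX1 (chr2:63050730-63050829, plus strand): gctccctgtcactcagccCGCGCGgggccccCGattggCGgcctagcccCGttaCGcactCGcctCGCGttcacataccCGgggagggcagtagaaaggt
These stretches held 2, 15 and 11 CpGs, in that order. The letters ACAATG, a core that SOX factors recognise, occurred on either strand in 1 of the 11 windows, that of SP8, against 10.8% of all windows. The octamer ATGCAAAT, a POU-factor motif, occurred in none of the 11, against 1.77% of all windows. A match or its absence is a statement on these letters and windows only.

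Neural progenitor genes outside the forebrain set were mixed. SOX21, a SOX factor of neural progenitors, had 2.57 and 2.07 CPM in H9 and 30.4 and 33.7 CPM in RUES2-GLR ESCs (3.82). PAX6, a regulator of neuroectoderm and eye, had 0 and 0.0855 CPM against 5.25 and 5.05 CPM (6.21). The neural cadherin CDH2 had 49.0 and 50.9 CPM against 187 CPM in both RUES2-GLR libraries (1.90). By contrast SOX3, a SOXB1 factor close to SOX2, was lower in RUES2-GLR ESCs, at 63.2 and 67.6 CPM in H9 and 14.5 and 22.2 CPM in RUES2-GLR ESCs (−2.00). SOX1, which marks committed neuroectoderm, had 0 and 1 counts in H9 and 6 and 2 counts in RUES2-GLR ESCs and was not tested. Of 16 pan-neural genes, 11 were tested, with 5 higher (45.5%, against 21.0% of all genes), 1 lower (9.09%, against 9.46%) and a median of 0.63. Of the 11, 2 (PAX6 and HES5) passed the filter through RUES2-GLR ESCs only, which itself favours this direction. The Notch target HES5 had no count in H9 ESCs and was at least 27.8-fold higher in RUES2-GLR ESCs.

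No tested neuronal gene was called higher. TUBB3, a neuronal tubulin, had 7.82 and 9.51 CPM in H9 and 1.25 and 2.02 CPM in RUES2-GLR ESCs (−2.65). STMN2, a tubulin regulator of growing axons, had 3.46 and 3.36 CPM against 0.750 and 0.337 CPM (−2.34). These were the only 2 lower genes of 9 tested (median −0.61), and STMN2 passed the filter through H9 ESCs only, as 1 other gene did through RUES2-GLR ESCs. Their summed level was 129 and 140.1 CPM of nuclear counts in H9 and 94.998 and 95.2 CPM in RUES2-GLR ESCs. Posterior neural genes divided into 4 higher and 2 lower of 8 tested, of which 1 passed the filter through RUES2-GLR and 3 through H9 ESCs only. The hindbrain factor EGR2 (3.58), the dorsal factor PAX3 (3.60), IRX3 (2.10) and GBX2 (1.41) were higher, while OLIG2, a ventral spinal cord factor, was lower, at 6.93 and 8.38 CPM in H9 and 0.583 and 0.674 CPM in RUES2-GLR ESCs (−3.69). The HOX genes listed had at most 1 count in any library.

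**Figure D2:**
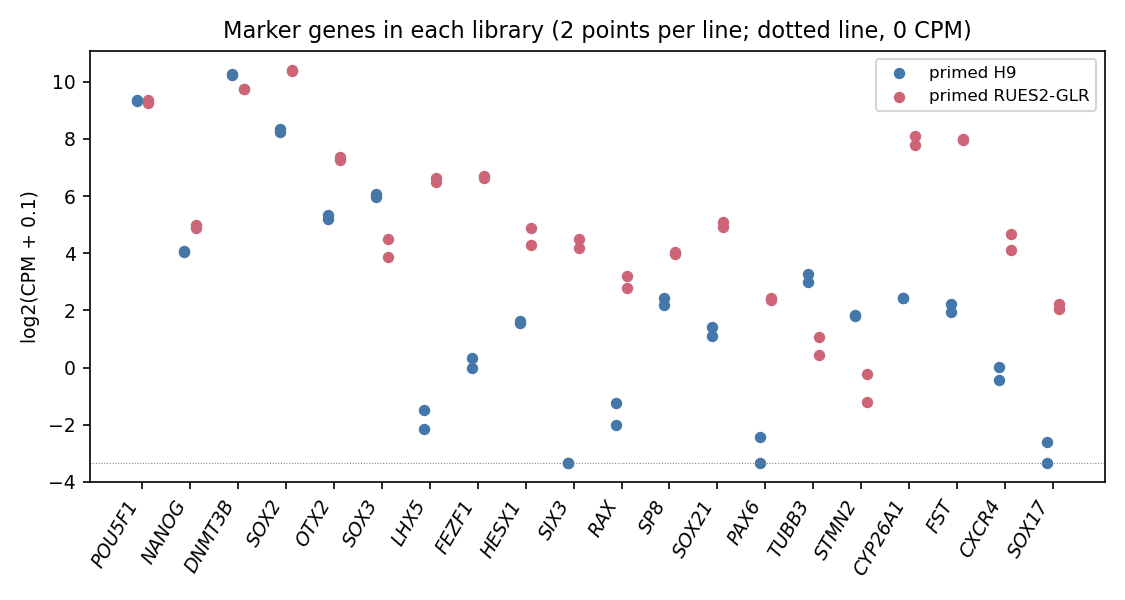
Level of 20 marker genes in each library, as log2(CPM + 0.1), with 2 points for primed H9 and 2 for primed RUES2-GLR ESCs per gene and a dotted line at 0 CPM. POU5F1 overlaps between the lines, LHX5, SIX3, RAX and PAX6 lie near the dotted line in H9 ESCs and well above it in RUES2-GLR ESCs, FEZF1 rises from 0.898 and 1.18 CPM to 103 and 100.1 CPM, and SOX3, TUBB3 and STMN2 lie lower in RUES2-GLR ESCs.

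Markers of other fates were measured in the same libraries. SOX17, an endoderm factor whose locus carries the tdTomato reporter, had 1 and 0 counts in H9 and 55 and 12 counts in RUES2-GLR ESCs, a ratio of 279 (95% counting interval 48.4 to 11188). CXCR4, a chemokine receptor used as an endoderm marker, had 0.641 and 0.919 CPM against 17.2 and 25.6 CPM (4.53), and HHEX was also higher (3.47). The HHEX call ended without replicate 1 of RUES2-GLR ESCs. Of 12 endoderm genes, 7 were tested, with 4 higher (57.1%, against 21.0% of all genes) and 1 lower (14.3%, against 9.46%), but 3 of the 7 passed the filter through RUES2-GLR ESCs only and 2 through H9 ESCs only. FOXA1, GATA4, GATA6 and TTR had at most 7 counts in any library. TBXT, the other reporter locus and a primitive streak factor, had 4 and 12 counts in H9 and 1 and 0 counts in RUES2-GLR ESCs. Of 5 streak and mesoderm genes tested, 1 was higher and 2 lower (median 0.05). The ligand WNT3 was called higher (1.92 and 2.24 CPM in H9, 5.58 and 2.36 CPM in RUES2-GLR ESCs, 1.16). This difference rests on replicate 1 of RUES2-GLR ESCs, as replicate 2 lay close to the H9 libraries. MIXL1 (−1.94) and MESP2 (−1.45), both streak and mesoderm factors, were called lower in RUES2-GLR ESCs, but both passed the filter through H9 ESCs only, and neither call held with DESeq2. Fibroblast markers, listed because feeder-free cultures can still hold differentiated cells, had 1 of 6 tested higher (COL1A1, 125 and 124 CPM against 368 and 439.8 CPM) and 1 lower. TWIST2, a mesenchymal factor, had no count in RUES2-GLR ESCs and was at least 22.3-fold higher in H9 ESCs. The fibroblast list summed to 358 and 359 CPM in H9 and 660.0 and 740.3 CPM of nuclear counts in RUES2-GLR ESCs, with COL1A1 its most abundant gene in all 4 libraries. Its part in the other differences was not tested.

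NODAL and BMP signals set the choice between pluripotency, mesendoderm and neural fate. FST, a secreted antagonist of activin, had 3.78 and 4.60 CPM in H9 and 247 and 252 CPM in RUES2-GLR ESCs (5.84 ± 0.11, SE). The receptors ACVR1B (1.66) and ACVR2A (1.93), the NODAL effector FOXH1 (1.65) and the activin subunit INHBE (2.17) were higher, while the inhibitory SMAD7 was lower (−1.03). The co-receptor TDGF1 (262 and 271 CPM against 427 and 438 CPM) and the antagonist LEFTY1 (24.6 and 24.3 CPM against 19.2 and 19.9 CPM) were not called. In all, 8 of 16 NODAL genes tested were higher and 1 lower (median 0.97), with 1 passing the filter through RUES2-GLR ESCs only. Among BMP ligands, BMP7 had 16.9 and 15.3 CPM in H9 and 61.1 and 77.2 CPM in RUES2-GLR ESCs (2.06), and BMP2 was also higher (1.69). The BMP target ID1 had 22.3 and 22.6 CPM against 110.0 and 108 CPM (2.28), and ID2 (2.20) and ID4 (2.34) moved with it. ID3, another target of the same family, had 166 and 173 CPM against 139.9 and 161 CPM and was not called. The BMP antagonists CHRD (2.54), NOG (2.12) and GREM1 (2.97) were higher as well, at under 5 CPM in every library. Of 13 BMP genes tested, 8 were higher and 1 lower (median 2.06), with CHRD, NOG and GREM1 passing the filter through RUES2-GLR ESCs only.

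Among WNT genes, several secreted inhibitors were higher, while targets were mixed. FRZB, a secreted WNT antagonist, had 2.50 and 2.69 CPM in H9 and 100.5 and 95.7 CPM in RUES2-GLR ESCs (5.22). SFRP1, of the same family, had 898 and 909 CPM against 2715 and 2950.0 CPM (1.65). DKK1, a further secreted inhibitor, had 0 and 5 counts in H9 and 64 and 19 counts in RUES2-GLR ESCs (6.03). The WNT target SP5 (5.69) was also higher, while the feedback inhibitor NKD1 was lower (−1.46). AXIN2, a widely used WNT target, had 12.5 and 11.4 CPM in H9 and 22.7 and 18.5 CPM in RUES2-GLR ESCs and was not called, and TCF7 overlapped between the lines. Of 17 WNT genes tested, 10 were higher and 1 lower (median 1.16). Of these, 4 (DKK1, SP5, LEF1 and WNT8A) passed the filter through RUES2-GLR ESCs only, which itself favours this direction.

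FGF and ERK targets pointed in different directions. The ETS factors ETV4 (176 CPM in both H9 libraries against 78.5 and 83.2 CPM) and ETV5 (59.8 and 57.3 against 27.6 and 25.3 CPM) and the phosphatase DUSP6, which ERK induces, were lower in RUES2-GLR ESCs. In contrast the immediate-early genes FOS (21.2 and 22.1 against 138 and 136 CPM) and EGR1 (65.7 and 77.2 against 201 and 165 CPM) were higher. FGF13 was lower (−1.72) and the ligand FGF19 higher (2.33). The receptors FGFR2 (1.05) and FGFR3 (1.39) were higher. Of 19 tested, 6 were higher and 4 lower (median 0.32), against 21.0% and 9.46% of all genes, and FGF17, 1 of the 6, passed the filter through RUES2-GLR ESCs only.

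Notch and retinoid genes included some of the larger differences. The Notch ligand JAG1 had 29.6 and 26.0 CPM in H9 and 222 and 233 CPM in RUES2-GLR ESCs (3.04). LFNG, which modifies Notch receptors (2.98), the ligand DLL1 (2.62) and the target HES1 (2.77) were higher, and HEY2 was lower (−1.43). In total 6 of 13 Notch genes tested were higher and 1 lower (median 0.80), and HES5, 1 of the 6, passed the filter through RUES2-GLR ESCs only. CYP26A1, the enzyme that degrades retinoic acid, had 5.26 and 5.28 CPM in H9 and 218 and 277 CPM in RUES2-GLR ESCs (5.53 ± 0.12, SE). Its relative CYP26C1 (5.83), the retinol receptor STRA6 (3.08), the retinaldehyde reductase DHRS3 (1.45) and the binding protein CRABP2 (1.69) were higher too. Of the enzymes that make retinoic acid, ALDH1A2 had 2 and 5 counts against 54 and 12 counts (5.21), whereas ALDH1A3 was lower (−1.65). The receptors RARG (−0.48) and RXRA (−0.75) were not called. Neither line had been given retinoic acid according to the culture methods. Of 13 retinoid genes tested, 6 were higher and 1 lower (median 0.24), with 2 passing through RUES2-GLR and 1 through H9 ESCs only.

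**Figure D3:**
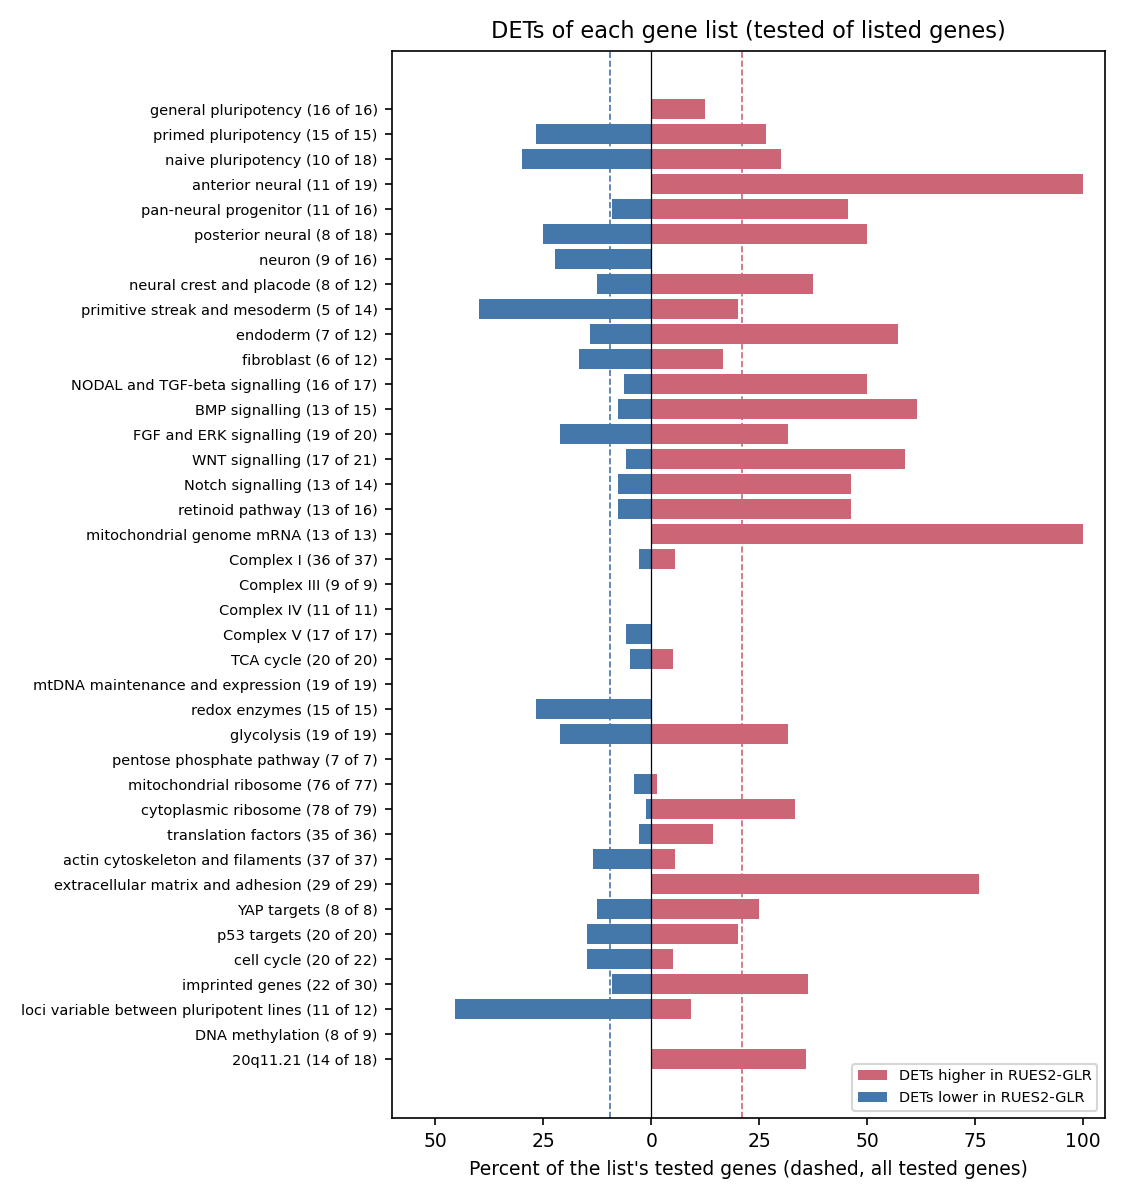
Percent of the tested genes of each list that were DETs higher (right) or lower (left) in RUES2-GLR ESCs, for lists with 5 or more tested genes, with dashed lines at the 21.0% and 9.46% of all tested genes. Anterior neural and mitochondrial mRNA genes reach 100% higher, extracellular matrix and adhesion 75.9%, and the nuclear complexes I, III, IV and V lie under both lines.

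Mitochondrial transcripts took a much larger share of counts in RUES2-GLR ESCs. Genes of the mitochondrial genome made up 3.01% and 2.68% of counts in primed H9 and 21.4% and 22.4% in primed RUES2-GLR ESCs. The means were 2.84% ± 0.232 and 21.9% ± 0.707 (SD, n = 2 each), a difference of 19.1 percentage points and a ratio of 7.70. A two-sided exact permutation test of 2 against 2 libraries gave p = 0.333, the smallest this design allows. No other human group reached that level. Naïve H9 ESCs had 5.47% and 4.93%, early RA-gastruloids 5.17% and 5.24%, and late RA-gastruloids 4.90% and 6.71%. The RUES2-GLR ESCs thus exceeded both naïve H9 ESCs and the RA-gastruloids made from the same line.

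**Figure D4:**
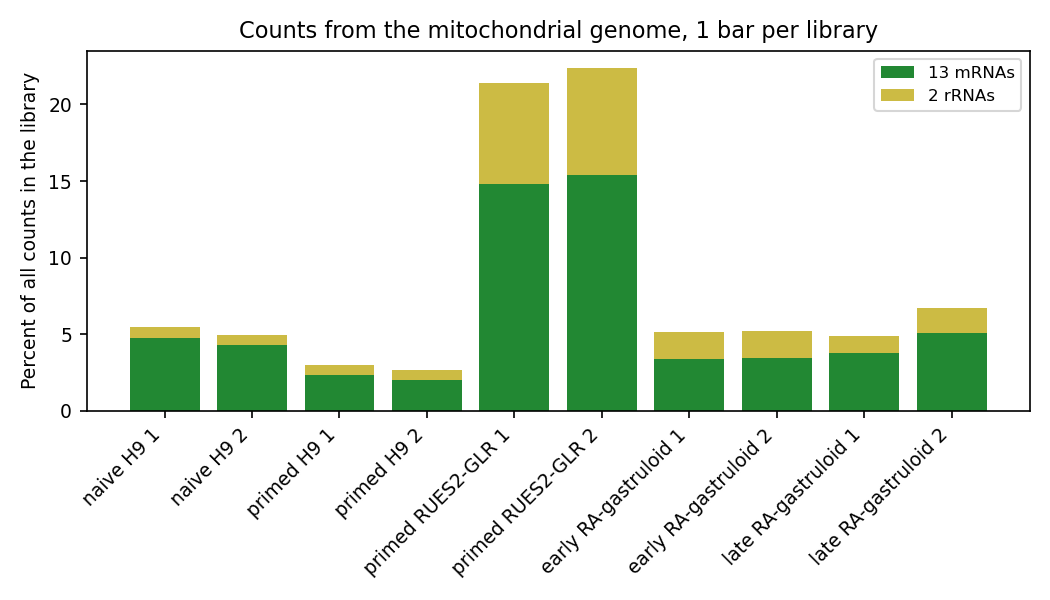
Counts from the 13 mRNAs and 2 rRNAs of the mitochondrial genome as a percent of all counts, 1 stacked bar for each of the 10 human libraries. The primed RUES2-GLR bars stand at 21.4% and 22.4%, and no other library exceeds 6.71%.

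All 13 mitochondrial mRNAs were higher in RUES2-GLR ESCs, between 2.02 (MT-ND3) and 3.78 (MT-CO1) on the log2 scale, with a median of 3.15. MT-CO1, a catalytic subunit of Complex IV, had 4234 and 3795 CPM in H9 and 52444 and 57533 CPM in RUES2-GLR ESCs. MT-ND4, a subunit of Complex I, had 2044 and 1767 CPM against 18562 and 19208 CPM (3.31). MT-ND6, the only one of these mRNAs encoded on the light strand, had 539.6 and 441 CPM against 3296 and 2929 CPM (2.67). The increase thus covered the mitochondrially encoded subunits of complexes I, III, IV and V. The rRNAs rose further, MT-RNR1 by 4.23 and MT-RNR2 by 3.88, so that the rRNA share rose from 0.656% to 6.79% (ratio 10.4) and the mRNA share from 2.18% to 15.1% (ratio 6.93). The libraries were made from polyadenylated RNA, and how completely that selection retained mitochondrial transcripts in each line was not measured. Of 16 mitochondrial tRNAs in the table, 7 were tested, with MT-TP higher (3.45) and MT-TV, MT-TC and MT-TY lower. Leaving all mitochondrial genes out of the counts and library sizes left 4758 DETs, of which 4702 were shared with the 4769 in the same direction.

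Nuclear genes for the same machinery were seldom called, unlike the mRNAs of the mitochondrial genome. Among 36 tested nuclear subunits of Complex I, 2 were higher (NDUFB5 and NDUFC2, each by close to the threshold) and 1 was lower (NDUFA13, which passed the filter through H9 ESCs only), with a median of 0.03. Complex III (9 tested, median −0.23) and Complex IV (11 tested, median 0.42) had no DET. Complex V had 1 lower of 17 tested (ATP5ME, −1.19), and Complex II had 1 higher of 4 (SDHD, 1.31). Apart from Complex II, these shares lie under the 21.0% and 9.46% of all tested genes. The TCA cycle had 1 higher and 1 lower of 20 (median −0.23), the lower gene being IDH3A (−1.85). Mitochondrial ribosomal proteins had 1 higher and 3 lower of 76 (median −0.24). None of the 19 genes that maintain and express mitochondrial DNA was a DET, with a median of −0.38. TFAM, which packages and activates the mitochondrial genome, had 108 CPM in both H9 libraries and 102 and 83.9 CPM in RUES2-GLR ESCs. The helicase TWNK (−0.86), the topoisomerase TOP1MT (−0.96) and SLIRP, which stabilises mitochondrial mRNAs (−0.93), were lower by less than the fold threshold. By adjusted p alone edgeR called these last 3 lower. In the lists without a DET, many genes moved by less than the fold threshold: at an unadjusted p under 0.05, edgeR gave 8 of 9 in Complex III (2 higher and 6 lower), 11 of 11 in Complex IV (10 higher and 1 lower) and 13 of 19 among the mitochondrial DNA genes (2 higher and 11 lower). DESeq2 gave no DET in these 3 lists either.

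Of 15 redox enzymes tested, 4 were lower in RUES2-GLR ESCs and none higher (median −0.45), against 9.46% lower and 21.0% higher among all genes. CAT, 1 of the 4, passed the filter through H9 ESCs only. NQO1, a quinone reductase, had 48.4 and 48.0 CPM in H9 and 18.8 and 15.2 CPM in RUES2-GLR ESCs (−1.43), and TXNRD1, the cytosolic thioredoxin reductase, 205 and 204 CPM against 101 and 89.0 CPM (−1.08). Catalase (CAT) had 3.46 and 4.21 CPM against 0.500 and 0 CPM (−3.29). TXNRD2, the mitochondrial thioredoxin reductase, had 27.3 and 26.8 CPM against 1.25 and 2.36 CPM (−4.19). Strand was not used in counting, so reads of TXNRD2 and of overlapping genes cannot be fully told apart. CAT belongs to the loci known to vary between pluripotent lines.

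Glucose uptake and glycolysis divided. The glucose transporters SLC2A1 (370.2 and 379.6 CPM in H9, 2674 and 3152 CPM in RUES2-GLR ESCs, 2.96) and SLC2A3 (554 and 545 against 3157 and 3286 CPM, 2.55) were higher. LDHA, which makes lactate, had 403 and 389.7 CPM against 1109 and 1101 CPM (1.48). On the other side HK1, which phosphorylates glucose (−1.20), PFKM (−1.16) and PFKP (−1.43), isoforms of phosphofructokinase, and ALDOA (−1.50) were lower. Altogether 6 of 19 were higher (31.6%) and 4 lower (21.1%), against 21.0% and 9.46% of all genes (median −0.01). Of the 11 with annotated pseudogenes, 5 were higher and 1 lower (median 0.69), and of the 8 without, 1 was higher and 3 lower (median −0.28), so the values of SLC2A3, LDHA, PGK1, TPI1 and PGAM1 carry the limit on copied genes given above. SLC2A1 has no annotated pseudogene. The pentose phosphate pathway had no DET among 7 genes by edgeR or DESeq2, with 5 at an unadjusted edgeR p under 0.05.

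Genes for membrane and secreted proteins were higher in RUES2-GLR ESCs across many families. These families were defined by gene symbol after the values had been seen, so their numbers are a description. Among all 13667 protein-coding genes tested, 19.2% were higher and 9.13% lower, with a median of −0.05. Solute carriers other than the mitochondrial ones had 117 of 218 higher and 5 lower (median 1.13). Genes named as transmembrane proteins (TMEM) had 95 of 190 higher and 4 lower (median 0.99), claudins 9 of 13 and 0 (1.69), cadherins with protocadherins 35 of 63 and 4 (1.38), and collagens 19 of 34 and 1 (1.04). Adhesion and orphan G protein-coupled receptors had 26 of 56 higher and 1 lower (0.92), semaphorins 8 of 20 and 0 (0.74), and ephrin receptors 5 of 13 and 0 (0.91). Families of soluble or mitochondrial proteins had a smaller share of higher genes than all protein-coding genes. Genes with the symbols of initiation factors had 6 of 53 higher and 1 lower (−0.25). The 6 include EIF2AK3 (1.12), a membrane kinase rather than a soluble factor. Proteasome subunits had 2 of 48 higher and 5 lower (−0.38), kinesins 1 of 36 and 4 (−0.40), zinc finger genes 35 of 443 and 33 (0.00) and mitochondrial carriers 1 of 40 and 3 (−0.13).

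**Figure D5:**
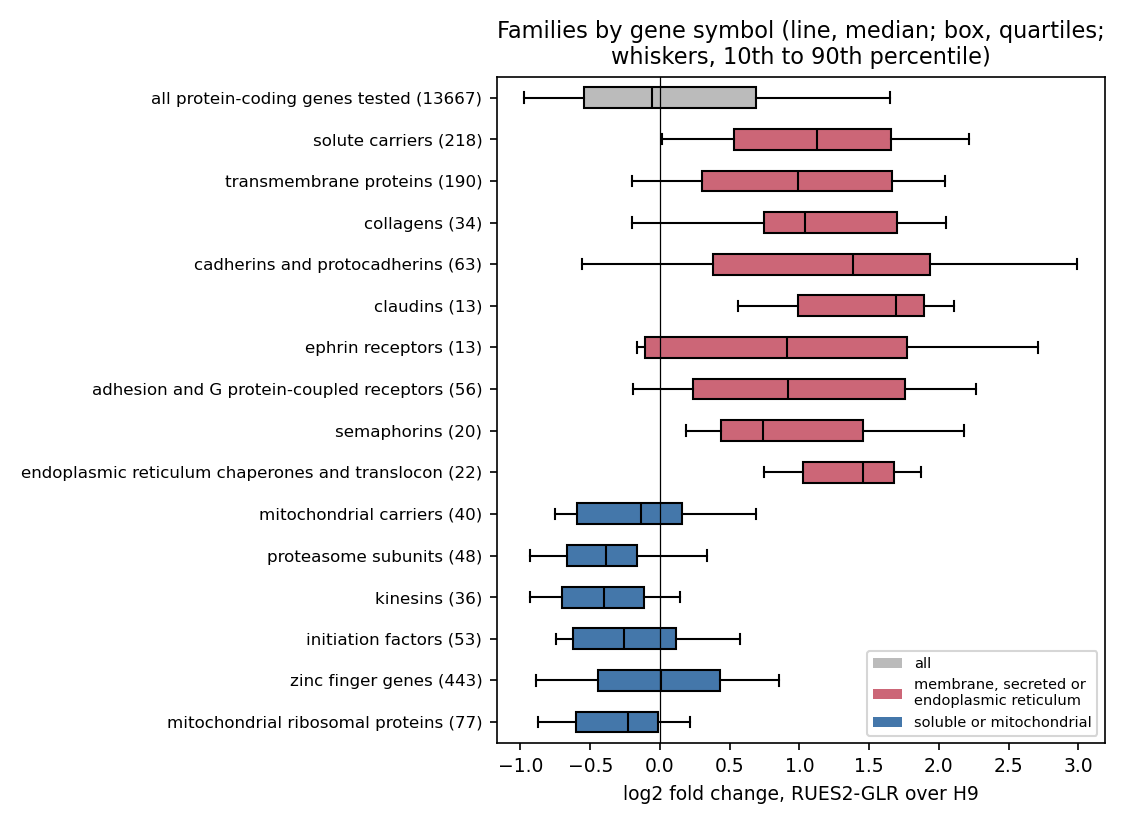
Log2 fold changes (RUES2-GLR over H9) of gene families, with the number of tested genes in parentheses, the median as a line, quartiles as a box and the 10th to 90th percentile as whiskers. Families of membrane, secreted or endoplasmic reticulum proteins have medians between 0.74 and 1.69, and those of soluble or mitochondrial proteins between −0.40 and 0.00.

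Machinery of the endoplasmic reticulum, where such proteins are made, moved likewise. Of 22 chaperone and translocon genes, 17 were higher in RUES2-GLR ESCs and none lower (median 1.46). HSPA5, the main chaperone of the compartment, had 626 and 618 CPM in H9 and 1897 and 2002 CPM in RUES2-GLR ESCs (1.65). CALR (1.41) and CANX (1.63), lectin chaperones, and XBP1, a transcription factor of the unfolded protein response (2.03), were higher as well. As a share of nuclear counts, solute carriers and TMEM genes took 1.82% and 1.81% in primed H9, 3.77% and 3.95% in primed RUES2-GLR ESCs and 2.15% in both early RA-gastruloid libraries. The endoplasmic reticulum genes took 0.801% and 0.785%, 1.88% and 1.93%, and 0.964% and 0.972% in the same order. The nuclear RNAs MALAT1 (3.18) and NEAT1 (2.18) were also higher, at under 30 CPM. Many of the NODAL, BMP, WNT and Notch genes above, and nearly all adhesion genes below, encode membrane or secreted proteins. The part of this family-wide shift in those lists was not tested.

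Extracellular matrix and adhesion genes had 22 of 29 higher and none lower (median 1.46). CDH1, the epithelial cadherin, had 212 and 206 CPM in H9 and 971 and 1023 CPM in RUES2-GLR ESCs (2.25). EPCAM (1.98), the claudin CLDN6 (2.11), the basement membrane collagens COL4A1 (1.70), COL4A2 (1.97) and COL4A5 (2.27), laminin LAMB1 (1.88) and the integrins ITGA5 (1.99), ITGA6 (1.52) and ITGB1 (1.12) were higher. Fibronectin (FN1) had 122 and 116 CPM against 108 and 111 CPM and was not called. TJP1, which sits on the inner face of tight junctions, had 170.2 and 175 CPM against 109 and 105 CPM (−0.68, not called). Actin and filament genes had 5 of 37 lower (13.5%) and 2 higher (5.41%), against 9.46% and 21.0% of all genes (median −0.42). The actin crosslinker FLNA had 2194 and 2259 CPM against 951 and 1106 CPM (−1.12), and talin (TLN1, −1.42) and zyxin (ZYX, −1.03), which link integrins to actin, were lower. The calls of FLNA and ZYX ended without replicate 1 of RUES2-GLR ESCs, and that of ZYX also with thinned counts. VIM (1.72) was higher. ACTB had 4684 and 4749 CPM against 4049 and 4412 CPM (−0.16, not called).

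Translation genes carry the limit on copied genes. Of 78 cytoplasmic ribosomal protein genes tested, 26 were higher and 1 lower (median 0.51), and 77 of them have annotated pseudogenes. EEF1A1, the elongation factor that brings tRNAs to the ribosome, had 906 and 899 CPM in H9 and 5712 and 6199 CPM in RUES2-GLR ESCs (2.72). Its naïve H9 values of 1294 and 1150 CPM and early RA-gastruloid values of 6593 and 6963 CPM lay nearer to those of the same line. EEF2, which moves the ribosome along, had 5224 and 5248 CPM against 3269.8 and 3908 CPM (−0.55, not called). Translation factors without pseudogenes had 1 higher and 1 lower of 15 (median −0.44), the lower gene being the scaffold EIF4G1 (−1.20).

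Imprinted genes, expressed from 1 parental copy and known to drift in cultured ESCs, had 8 higher and 2 lower of 22 tested (median 0.62), with 2 passing the filter through RUES2-GLR and 1 through H9 ESCs only. DLK1, a paternally expressed Notch-like ligand on chromosome 14 (100725705 to 100738224), had 0.577 and 0.898 CPM in H9 and 331 and 435 CPM in RUES2-GLR ESCs (8.85), and was 1 of the 2 that passed through RUES2-GLR ESCs only. RA-gastruloids had between 5.13 and 6.75 CPM, and naïve H9 ESCs had 17.9 and 20.2 CPM. NNAT (27.1 and 26.4 against 133 and 163 CPM, 2.44), KCNQ1OT1 (2.44), PHLDA2 (2.08) and MEST (1.42) were higher. SNRPN had 119 and 110.1 CPM against 30.1 and 30.3 CPM (−1.92) and INPP5F 74.0 and 75.6 CPM against 17.4 and 14.2 CPM (−2.17). No allele was resolved here.

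Some genes were silent in 1 line. Taking genes that averaged 5 CPM or more in the other line, 14 had at most 3 counts over both RUES2-GLR libraries and 18 at most 3 counts over both H9 libraries. These were singled out after their values were seen. The RUES2-GLR libraries held fewer counts together than the H9 libraries, so 3 counts are a weaker limit in RUES2-GLR ESCs. The 14 and the 18 are therefore not directly comparable. C9orf64, on chromosome 9 (83938311 to 83956986), a locus that varies between pluripotent lines, had 196 and 646 counts in H9 and none in RUES2-GLR ESCs, at least 67.4-fold higher in H9. LY6E, a surface protein of the LY6 family, had 1866 and 5704 counts in H9 and 1 and 0 counts in RUES2-GLR ESCs, a ratio of 1817 (95% counting interval 326 to 71778). LY6E was 1 of 4 such genes in a run on chromosome 8 (142727223 to 143262705, GRCh38), with THEM6, LYNX1 and ZFP41, each with no count in RUES2-GLR ESCs and at least 51.0-fold, 88.5-fold and 60.5-fold higher in H9 ESCs. A run here means neighbours among the tested genes, and any untested genes between them were skipped. Of the 14 genes, 9 were split by line in all 10 human libraries, being at most at 3 counts in RA-gastruloid libraries and above that in naïve H9. In the opposite direction, the adhesion receptor ADGRG7 had no count in H9 and 1243 and 287 counts in RUES2-GLR ESCs (at least 2125-fold higher), and PNPLA4, a lipid hydrolase, 0 and 1 counts against 606 and 153 (ratio 3162, 95% counting interval 566 to 125059). Of these 18 genes, 5 were split by line in all human libraries. Among the loci variable between pluripotent lines, 5 of 11 tested were lower in RUES2-GLR ESCs and 1 was higher (median −0.72), with 3 passing through H9 ESCs only.

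At 20q11.21, a region often gained in cultured ESCs, 5 of 14 genes tested were higher (35.7%, against 18.7% over chromosome 20 and 21.0% of all genes) and none lower (median 0.14, against −0.13 over chromosome 20). The higher genes were HM13 (1.72), POFUT1 (1.90), TM9SF4 (1.81), XKR7 (1.80) and ID1, of which the former 4 encode membrane or endoplasmic reticulum proteins. BCL2L1, the survival gene of the region, had 50.9 and 50.1 CPM in H9 and 36.0 and 45.8 CPM in RUES2-GLR ESCs, and the spindle gene TPX2 267 and 256 CPM against 171 and 156 CPM. Chromosome medians ran from −0.26 (chromosome 22) to 0.18 (chromosome X), apart from the mitochondrial genome at 3.09. No DNA copy number was measured.

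Cell cycle genes had 3 of 20 lower (15%) and 1 higher (5%), against 9.46% and 21.0% of all genes (median −0.36), and 1 of the 20 passed the filter through H9 ESCs only. MKI67, present in cycling cells, had 178 and 223 CPM in H9 and 92.0 and 70.4 CPM in RUES2-GLR ESCs (−1.26), and the G1 cyclins CCND3 (−1.52) and CCNE1 (−1.40) were lower. Targets of p53 had 20% higher and 15% lower, against 21.0% and 9.46% of all tested genes, namely 4 of 20 higher (FAS 3.71, GDF15 2.46, TNFRSF10B 1.84 and CCNG1 1.38) and 3 lower, among them the repair gene XPC (−1.60). CDKN1A, the p53-induced cell cycle inhibitor, had 25.5 and 22.5 CPM against 11.1 and 15.5 CPM and was not called. YAP targets had 2 of 8 higher (25%) and 1 lower (12.5%), shares near those of all genes. No DNA methylation gene was a DET among 8 tested by edgeR or DESeq2 (median −0.37), although all 8 had an unadjusted edgeR p under 0.05, with 3 higher and 5 lower.

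Genes at or near 0 in a line, such as ADGRG7, SIX3, LY6E and C9orf64 above, were set aside in ranking fold changes. Among protein-coding DETs with at least 10 CPM in the higher line and more than 3 counts in a library of the lower line, the 12 largest rises began with LHX5, LGI1, DLK1 and LMO1. These 4, and GREB1L, CDH9 and WFIKKN2 among the rest, passed the filter through RUES2-GLR ESCs only, as DGKK among the falls did through H9 ESCs. LGI1, a secreted protein of neurons, had 0 and 7 counts in H9 and 699 and 155 counts in RUES2-GLR ESCs (8.89), and the LIM-only factor LMO1 0 and 6 counts against 267 and 88 (7.90). The other 8 were GREB1L, CDH9, VWF, FEZF1, WFIKKN2, CDH6, RPS3A and TNFRSF19. VWF, the clotting factor of endothelium, had 0.898 and 1.41 CPM in H9 and 137 and 148 CPM in RUES2-GLR ESCs (6.78), although naïve H9 ESCs had 37.2 and 38.0 CPM. Under the same limits, the 12 largest falls were DGKK, TXNRD2, NME2, RIPOR2, NEDD9, RASGRF2, IQSEC2, DACT1, ERVH48-1, PPP1R16B, ITIH5 and EMX1. DGKK, a diacylglycerol kinase, had 21.5 and 20.9 CPM in H9 and 1.17 and 0.674 CPM in RUES2-GLR ESCs (−4.30). RIPOR2 had 79.0 and 81.0 CPM against 7.33 and 5.05 CPM (−3.55). The nucleoside diphosphate kinase gene NME2 overlaps a read-through gene with NME1, so its value (−4.02) is uncertain. EMX1, a cortical homeobox gene outside the anterior neural list, had 15.1 and 16.0 CPM in H9 and 2.17 and 3.37 CPM in RUES2-GLR ESCs (−2.69), opposite to its relative EMX2. By level, the most abundant DETs that were lower in RUES2-GLR ESCs were HMGA1, FASN, FLNA, HSPA8 and EIF4G1, and FASN, the fatty acid synthase, had 2794 and 2816 CPM in H9 and 753 and 887 CPM in RUES2-GLR ESCs (−1.78). The most abundant that were higher were all mitochondrial, namely MT-RNR2, MT-CO1, MT-CO3, MT-CO2 and MT-ND4.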

How the data were processed

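RNA of 2 replicates per line was sequenced by the authors. Per the labels and methods, polyadenylated RNA was trimmed with Trimmomatic 0.39, aligned with STAR to GRCh38 and counted with featureCounts at default settings, which leave out multiply aligned reads and ignore strand. The deposited values are raw counts per gene, with no normalisation. The annotation release is not given in the sources used here, but 99.4% of named genes had the coordinates of GENCODE 44. All sample columns of the table were mapped.

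Counts were fitted in R 4.3.3 with edgeR 4.0.16 (TMM, quasi-likelihood test) on the 4 libraries, after filtering at 0.737 CPM, and adjusted by Benjamini-Hochberg over all 15663 genes. DESeq2 1.42.0 was an alternative. On simulated data with 200 genes changed by a fold of 4 among 15663, edgeR and DESeq2 each recovered 200, with 0 false calls. The changed genes were drawn from those with enough counts in the shallowest library, as many rose as fell, and all libraries had the same dispersion. The simulation thus checks that the code runs as meant. It cannot speak for weak genes, or for data with many DETs, unequal directions and a shifted mitochondrial share. Members and lists were chosen with earlier results of these data known. Named were list members, the 12 largest rises and 12 largest falls among protein-coding DETs with at least 10 CPM in the higher line, more than 3 counts in a library of the lower line and no overlap between the libraries of the lines, and the 5 most abundant DETs in each direction. Gene families, genes at the limit of 3 counts, endoplasmic reticulum genes and nuclear RNAs were picked after their values were seen. Alternatives covered normalisation, filters, depth, tool, each replicate, a replicate block and genes without pseudogenes. A few list members and 1 gene family are not reported here.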

Additional observations from a re-analysis of the deposited data

How the results depend on the processing

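The number of DETs was 4769. It was 4768 with DESeq2 size factors or upper quartile normalisation, 4758 without mitochondrial genes, 4195 with DESeq2, 3606 with counts thinned to the shallowest library, and 4181 without genes that have annotated pseudogenes, an alternative added after the data were seen. Of these calls, 4123 were shared in direction with DESeq2 and 3254 with the thinned counts. Without a filter on low counts, 2295 genes were lower, and with at least 10 counts in each library there were 3169 DETs, of which 825 were lower. With all 10 human libraries, 2227 were lower and 58.4% of DETs were higher. By adjusted p alone, 10670 genes passed (5392 higher, 5278 lower, 50.5% higher), and above an absolute log2 fold change of 2 there were 1489 (1193 higher, 296 lower). Leaving out each library in turn gave 4074 to 5061 DETs, 2831 to 3498 higher, 1243 to 1591 lower and 67.9% to 70.3% higher, with 212 to 242 of the listed genes called and a mitochondrial difference of 18.6 to 19.6 percentage points. That difference was 12.9 points for the 13 mRNAs alone and 14.2 points as a share of protein-coding counts. POU5F1, which was not called (−0.03), was at −0.22 with all 10 human libraries (edgeR adjusted p = 0.0506, range 0.0506 to 0.928 over its alternatives) and −0.21 without a filter, changed sign to 0.04 with thinned counts, and ranged from −0.08 to 0.05 when each library was left out, the last without RUES2-GLR replicate 1. The cause of these shifts was not tested, beyond the fewer genes or counts that a setting leaves.

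Leaving out RUES2-GLR replicate 1, which leaves the shallow replicate 2 alone in its line and assumes that it varies like the H9 libraries, ended 20 calls among the named genes (ACTC1, ALDH1A3, DPPA5, FGFR2, FLNA, HHEX, HMGA1, KLF4, LEF1, LHX2, MESP2, MIXL1, NDUFB5, NDUFC2, NOG, OTX1, SIX6, TAGLN, TCF7L1 and ZYX). DESeq2 ended 6 (DPPA5, LHX2, MESP2, MIXL1, NDUFB5 and SIX6). All 10 human libraries ended 9 (FGFR2, ITGB1, KLF4, LAMC1, LEFTY2, NDUFB5, NDUFC2, PGK1 and TPI1), the fit without a filter 8 of these (all but LAMC1), and thinned counts 8 (ACTC1, DUSP6, NDUFB5, NDUFC2, TAGLN, TCF7L1, VRTN and ZYX). Leaving out H9 replicate 2 ended 6 (LEFTY2, MIXL1, NDUFB5, SIX6, SMAD7 and ZYX), H9 replicate 1 ended 3 (FGFR2, KLF4 and NDUFB5) and RUES2-GLR replicate 2 ended 2 (DUSP6 and TPI1). The depth of replicate 2, with 3681739 counts, limits genes of a few CPM.

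With the replicate number as a replicate block there were 4740 DETs (3292 higher, 1448 lower, 69.5% higher), and 2 calls among the named genes ended (NDUFB5 and SMAD7). The lines share only a number, since the correlation of the replicate differences across genes was 0.015, so the block is no pairing.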

Other observations

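Members of further lists are given here. SOX9, a factor of neural crest and other progenitors, had 6.16 and 5.43 CPM in primed H9 and 17.3 and 12.5 CPM in RUES2-GLR ESCs and was called higher, while the ETS factor ETS1 had 65.5 and 66.9 CPM against 11.0 and 7.75 CPM (−2.69). Of 8 tested genes of the neural crest and placode list, 3 were higher and 1 lower (median 0.15), and 2 of the 8 passed the filter through RUES2-GLR ESCs only and 1 through H9 ESCs only. Among YAP targets, the receptor kinase AXL (51.0 and 49.3 against 118 and 126 CPM, 1.27) and tissue factor F3 (1.57) were higher, and AMOTL2, a junctional inhibitor of YAP, was lower (92.4 and 92.2 against 32.6 and 35.7 CPM, −1.46). At loci that vary between pluripotent lines, TMEM132C was higher (1.15 and 1.28 against 22.5 and 23.9 CPM, 4.19), whereas its relative TMEM132D (−1.83) and the receptor phosphatase PTPRT (−2.75) were lower.

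By type of gene, 376 of 1471 tested long non-coding RNAs were higher and 173 lower, with a median of 0.23, against −0.05 for protein-coding genes. Among the genes silent in H9 ESCs, picked after their values were seen, QPCT, a glutaminyl cyclase, had no count in H9 and 192 and 49 counts in RUES2-GLR ESCs (at least 335-fold higher), yet 294 and 211 counts in naïve H9 ESCs. LIX1 had 1 count in each H9 library and 280 and 71 counts in RUES2-GLR ESCs, a ratio of 731 (95% counting interval 201 to 6061), and 2 and 1 counts in naïve H9 ESCs.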
